A study of Mus musculus with 25 samples.

Results

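The genes described here sense cellular sterol or move it into, through and out of the cell. They were chosen by name for these roles, with earlier results of these data known, and there are 9 of them among the 23116 genes of the deposited expression table. *Srebf1* and *Srebf2* encode SREBP transcription factors, *Scap* encodes their escort protein, *Insig1* and *Insig2* encode the proteins that hold the escort in the endoplasmic reticulum, *Stard4* encodes a carrier of cholesterol in the cytosol, *Nr1h2* encodes the oxysterol receptor LXRβ, and *Abca1* and *Abcg1* encode transporters that export cholesterol. All 9 were detected and passed the filter on low values, a mean FPKM of at least 0.1.

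As background, SCAP carries the SREBP precursors to the Golgi when membrane sterol is low, where they are cut to release factors that switch on genes of sterol synthesis and uptake, *Insig1* and *Srebf2* among them. When sterol is ample, the INSIG proteins keep SCAP and SREBP in place, and oxysterols activate LXR, whose targets include *Abca1*, *Abcg1* and *Srebf1*. In blood-forming stem and progenitor cells, cholesterol efflux through ABCA1 and ABCG1 is known to restrain proliferation.

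RNA-seq was performed on hematopoietic stem cells sorted as HSLAM (LSK+ CD150+ CD48-) from the bone marrow of adult male C57BL/6 littermates, with 3 libraries from *Znf143 f/f* mice without Cre and 3 from *Znf143 -/-* mice, which carried the same floxed alleles and Rosa26ERT2-Cre. Mice of both groups received tamoxifen at the middle of the tested doses. This Cre is expressed throughout the body and activated by tamoxifen, so that deletion was not restricted to blood cells, and Cre itself was present in the *Znf143 -/-* mice only. The libraries of these groups are called control and knockout below. The sample labels name the deleted genotype a CTCF knockout, whereas the study describes it as *Znf143 -/-*. *Zfp143*, the mouse symbol of the deleted gene, was at 3.07, 4.43 and 3.66 scaled FPKM in control and at 0.155, 0.298 and 0.270 in knockout libraries, a mean of 6.48% of control.

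Levels are given as scaled FPKM, the deposited fragments per kilobase and library total divided by a size factor of each library, since the third knockout library carried the divisor of the second although it held 1.20 times as many fragments on genes. The libraries held 38643255 to 57895793 fragments on genes. Within both genotypes, 1 library stood apart. Between the first and the third control libraries, and between the second and the third knockout libraries, the median variance of a gene was 2.75 and 2.97 times that of counting error, whereas it was 20.04 to 24.9 times in the other 4 pairs within a genotype. The second control and the first knockout libraries were thus the distant ones. The close pairs differed beyond counting error, which cannot tell separate mice from repeated preparations of the same sample. All libraries were counted as separate samples because the study describes those of a genotype as biological replicates. Changes are given as log2 fold changes of *Znf143 -/-* against *Znf143 f/f* on log2(scaled FPKM + 0.1), and called at an adjusted p under 0.05 in limma over the 19279 genes tested.

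The start regions of some members hold short motifs of the kinds that LXR and SREBP are known to bind. RefSeq windows of 300 bases on GRCm38.p6, from 250 bases before a transcription start to its first 50 bases, were at hand for 7 of the 9 genes, with 12 windows in all. *Abca1* and *Srebf1*, both known LXR targets, are shown for a direct repeat, GGTNA followed after 5 bases by a further GGTNA (in capitals, read here on the opposite strand), the kind of element that LXR binds. In *Abca1* (chr4:53159846-53160145, minus strand), the repeat begins 67 bases before the start. In *Srebf1* (chr11:60210422-60210721, minus strand), it begins 182 bases before the start of the shorter form, which lies within the gene. Of 32851 promoter windows, 0.718% held these letters on either strand.
Abca1: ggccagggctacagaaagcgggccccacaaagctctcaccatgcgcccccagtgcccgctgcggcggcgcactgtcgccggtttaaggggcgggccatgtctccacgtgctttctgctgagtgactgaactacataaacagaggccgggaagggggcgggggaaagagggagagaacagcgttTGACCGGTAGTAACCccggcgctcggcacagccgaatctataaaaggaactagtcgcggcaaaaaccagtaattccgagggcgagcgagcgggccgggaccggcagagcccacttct
Srebf1: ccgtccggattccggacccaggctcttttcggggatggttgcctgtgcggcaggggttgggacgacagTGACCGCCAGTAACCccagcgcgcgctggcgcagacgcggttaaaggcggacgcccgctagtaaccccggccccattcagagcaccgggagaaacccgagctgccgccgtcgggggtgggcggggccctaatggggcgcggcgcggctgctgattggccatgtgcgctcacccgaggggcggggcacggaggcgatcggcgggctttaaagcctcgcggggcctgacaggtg

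*Insig1* and *Srebf2*, known targets of SREBP itself, are shown for a sequence like a sterol regulatory element (CACNCCA, in capitals), found in 18.4% of all windows on either strand. It begins 8 bases before the start of *Insig1* (chr5:28071162-28071461, plus strand), where it reads on the opposite strand, and 161 bases before that of *Srebf2* (chr15:82147019-82147318, plus strand). In *Insig1*, the capitals also mark an E-box (CACGTG, found in 7.15% of windows) that begins 101 bases before the start.
Insig1: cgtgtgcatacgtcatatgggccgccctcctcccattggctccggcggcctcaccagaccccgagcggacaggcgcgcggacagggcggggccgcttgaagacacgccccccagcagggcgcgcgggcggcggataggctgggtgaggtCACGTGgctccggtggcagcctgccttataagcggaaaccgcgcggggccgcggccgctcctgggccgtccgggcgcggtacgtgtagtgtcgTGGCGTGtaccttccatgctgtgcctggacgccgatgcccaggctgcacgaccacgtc
Srebf2: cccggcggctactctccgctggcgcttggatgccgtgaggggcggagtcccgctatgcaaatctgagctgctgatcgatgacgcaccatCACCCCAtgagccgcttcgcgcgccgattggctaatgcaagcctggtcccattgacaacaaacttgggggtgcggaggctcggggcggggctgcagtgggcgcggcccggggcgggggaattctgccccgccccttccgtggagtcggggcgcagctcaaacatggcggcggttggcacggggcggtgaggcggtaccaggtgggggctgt

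The windows of *Insig2* also held the CACNCCA letters, and those of *Scap* and *Abca1* held an E-box. The window of *Nr1h2* held none of the 7 motifs searched, which also included the CCAAT box (37.4% of all windows), the exact sterol regulatory element SRE-1 (0.0913%) and both cores of the ZNF143 motif (0.286% for the core at its 5′ side and 1.88% for that at its 3′ side). Neither SRE-1 nor a core of the ZNF143 motif was found in any of the 12 windows. A match of letters does not show a bound site, and a lack of letters in these windows says nothing of binding elsewhere.

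In *Znf143 -/-* HSLAM cells, 4 of the 9 genes passed the test and all 4 were lower, namely *Abca1*, *Stard4*, *Abcg1* and *Srebf1*. No member rose. Over all genes tested, 1154 (5.99%) were called, 576 of them (2.99%) as lower. The share of calls that were higher was 50.1%, and 63.5% in FPKM as deposited, where the median log2 fold change of all genes was 0.11. In 6 of the 9 genes, every knockout library lay below every control library, which held for 15.3% of all genes tested. The median log2 fold change of the 9 genes was -0.43, beside 0.006 over all genes tested. In bulk RNA, fewer cells of a type and less RNA per cell cannot be told apart.

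**Figure D1:**
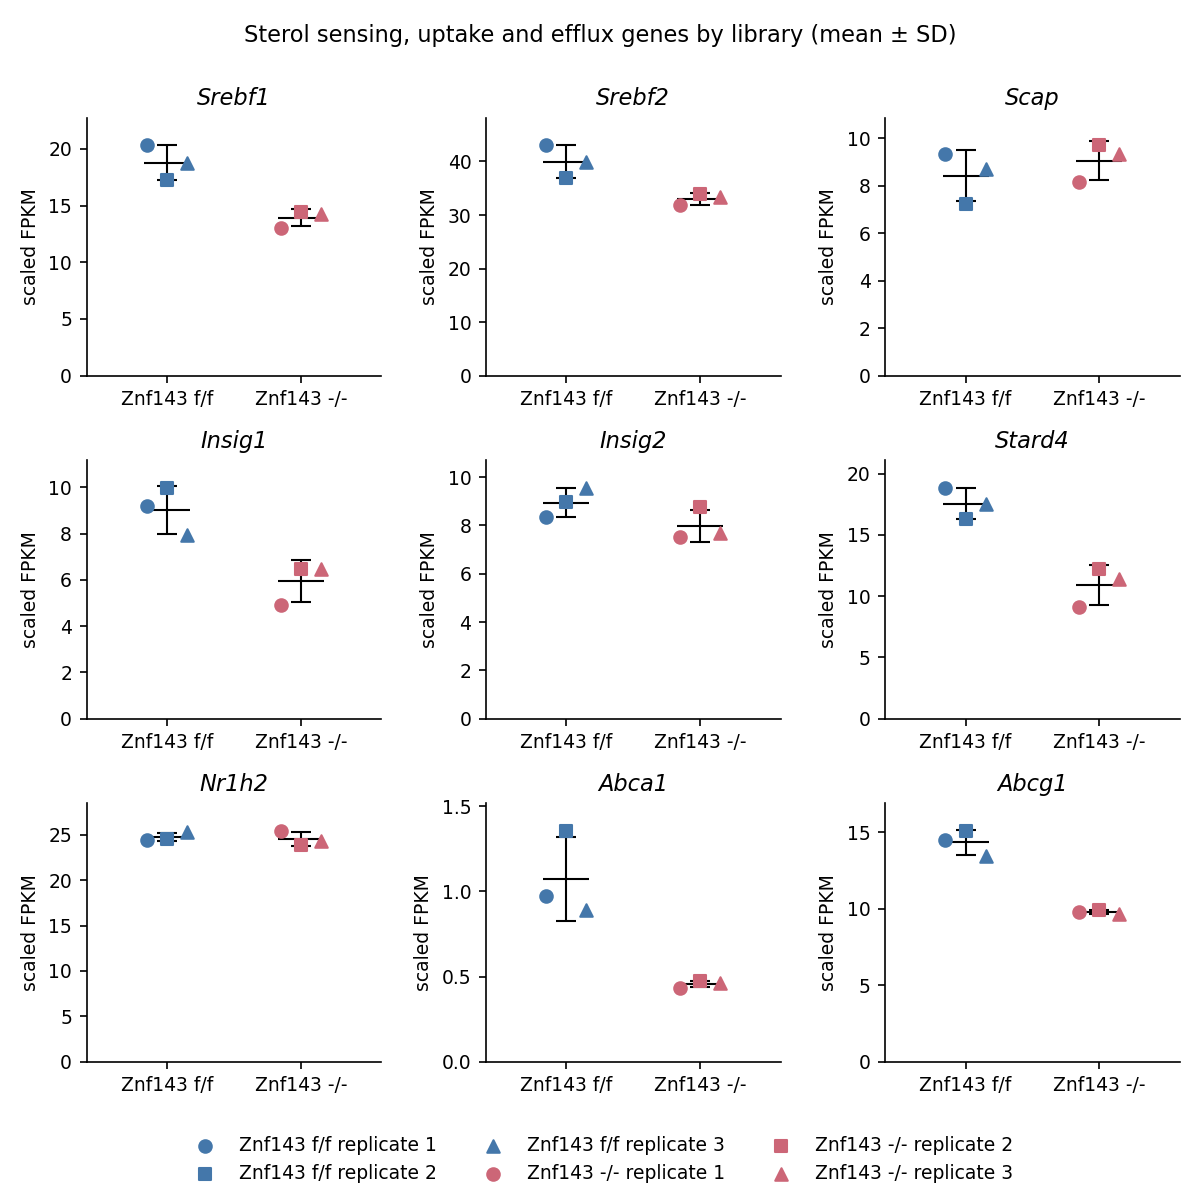
Scaled FPKM of the 9 genes (y axis, from 0) in the 3 control (*Znf143 f/f*) and 3 knockout (*Znf143 -/-*) libraries, with 1 marker per library and lines for the mean ± SD. The genotypes do not overlap for *Srebf1*, *Srebf2*, *Insig1*, *Stard4*, *Abca1* and *Abcg1* and overlap for *Scap*, *Insig2* and *Nr1h2*.

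In *Znf143 f/f* cells, *Srebf2* had the highest scaled FPKM of the 9 genes, followed by *Nr1h2* (24.8 ± 0.478, SD, n = 3). *Srebf1* and *Stard4* came next and overlapped between libraries, as did *Insig1*, *Insig2* and *Scap* further down the order. *Abca1* was lowest, at 1.07 ± 0.247 (SD, n = 3), below *Scap* by more than the spread of the libraries. *Abcg1* lay between *Stard4* and *Insig1* without overlap with either.

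Of the transcription factors, *Srebf1* passed the test and *Srebf2* did not. *Srebf1*, whose products favour genes of fatty acid synthesis, was at 20.3, 17.3 and 18.7 scaled FPKM in control libraries and at 13.0, 14.4 and 14.3 in knockout libraries. Every knockout value was below every control value, and the mean was 74.0% of that of control. Its log2 fold change was -0.43 (SE 0.0939) with an adjusted p of 0.049 in limma, just inside the threshold. In this gene (ENSMUSG00000020538.15, chr11:60199089-60222581, minus strand), 175 exonic bases are shared with *Mir6922* and with *Rai1* on the opposite strand.

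*Srebf2*, the main activator of cholesterol synthesis genes, was at 43.0, 37.0 and 39.9 scaled FPKM in control and at 31.8, 34.0 and 33.3 in knockout libraries. These groups did not overlap either, with a smaller difference. The log2 fold change was -0.27 (95% confidence interval -0.48 to -0.07), and the adjusted p of 0.116 in limma missed the threshold. Between 7043 and 9705 fragments lay on this gene (ENSMUSG00000022463.8, chr15:82147181-82205379, plus strand) per library.

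The ratio of *Srebf1* to *Srebf2* FPKM within a library does not depend on how libraries are scaled. It was 0.472, 0.467 and 0.469 in control libraries and 0.410, 0.423 and 0.429 in knockout libraries. The control libraries differed by little, and all knockout libraries were lower. The difference of log2 ratios was -0.16, with p = 0.1 in a two-sided exact permutation test, the smallest that 3 against 3 libraries can give, and 0.15 after Benjamini-Hochberg adjustment over the 3 ratios compared.

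Of the genes for proteins that hold or escort SREBP, *Scap* and *Insig2* overlapped between genotypes and *Insig1* did not. *Scap* was at 9.35, 7.23 and 8.70 scaled FPKM in control and at 8.15, 9.71 and 9.32 in knockout libraries. Its log2 fold change was 0.11, with a 95% confidence interval of -0.20 to 0.41 that holds changes in both directions (adjusted p = 0.660 in limma). Of the exonic bases of *Scap* (ENSMUSG00000032485.14, chr9:110333288-110384950, plus strand), 985 are shared with an antisense transcript, *5830462I19Rik*.

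*Insig1*, the INSIG gene that SREBP induces, was at 9.19, 9.97 and 7.93 scaled FPKM in control libraries and at 4.93, 6.48 and 6.46 in knockout libraries. All knockout values were lower, and their mean was 65.9% of that of control. The log2 fold change was -0.60 (SE 0.147), and the adjusted p of 0.0646 in limma missed the threshold. The gene lies at chr5:28071363-28078662, plus strand (ENSMUSG00000045294.11).

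*Insig2*, which is known to be controlled apart from SREBP, was at 8.34, 8.96 and 9.54 scaled FPKM in control and at 7.51, 8.75 and 7.68 in knockout libraries. The groups overlapped in the second knockout library. In limma, the log2 fold change was -0.16 (95% confidence interval -0.41 to 0.08, adjusted p = 0.384), for the gene at chr1:121304353-121332589, minus strand (ENSMUSG00000003721.14).

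The ratio of *Insig1* to *Insig2* FPKM was 1.10, 1.11 and 0.831 in control libraries and 0.656, 0.740 and 0.841 in knockout libraries. The third library of each genotype lay close to the other, so that the groups overlapped. The difference of log2 ratios was -0.44 (p = 0.2 in a two-sided exact permutation test, and 0.2 adjusted over the 3 ratios). A ratio chosen after the values were seen, *Insig1* to *Scap*, was 0.983, 1.38 and 0.912 in control and 0.605, 0.667 and 0.693 in knockout libraries, with no overlap.

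*Stard4*, the carrier of cholesterol between membranes and a known SREBP target, was the member with the largest fall after *Abca1*. It was at 18.8, 16.3 and 17.5 scaled FPKM in control libraries and at 9.10, 12.2 and 11.4 in knockout libraries. The highest knockout value was below the lowest control value, and the mean was 62.1% of that of control. *Stard4* fell with a log2 fold change of -0.69 (SE 0.130, adjusted p = 0.0321 in limma), over 2256 to 4476 fragments per library. The gene is ENSMUSG00000024378.9 on chromosome 18.

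The LXR receptor gene *Nr1h2* differed by less than the spread between libraries, whereas both efflux transporters fell. *Nr1h2* was at 24.5, 24.5 and 25.3 scaled FPKM in control and at 25.4, 23.9 and 24.4 in knockout libraries. The log2 fold change was -0.01 with a 95% confidence interval of -0.18 to 0.16 (adjusted p = 0.938 in limma), and its direction turned with the scaling, to 0.10 in FPKM as deposited. The gene lies at chr7:44549616-44553951, minus strand (ENSMUSG00000060601.13).

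*Abca1*, which loads cholesterol onto lipid-poor apolipoproteins, was at 0.973, 1.35 and 0.891 scaled FPKM in control libraries and at 0.433, 0.471 and 0.464 in knockout libraries. All knockout values were below all control values, the mean was 42.5% of that of control, and the second control library, 1 of the distant libraries, was the highest. *Abca1* fell with a log2 fold change of -1.06 (SE 0.209, adjusted p = 0.0372 in limma), and the change was -0.50 with a pseudocount of 1. Only 199 to 691 fragments per library lay on this long transcript (ENSMUSG00000015243.4, chr4:53030787-53159895, minus strand), the fewest among the members.

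*Abcg1*, which exports sterol to larger lipoproteins, was at 14.5, 15.1 and 13.4 scaled FPKM in control and at 9.77, 9.93 and 9.63 in knockout libraries. The knockout libraries lay close together and all below the control libraries, at a mean of 68.2% of control. The fall had the lowest p of the members, with a log2 fold change of -0.55 (SE 0.0824, adjusted p = 0.0167 in limma). The gene lies at chr17:31057675-31117988, plus strand (ENSMUSG00000024030.7).

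The ratio of *Abca1* to *Abcg1* FPKM was 0.0671, 0.0898 and 0.0663 in control and 0.0443, 0.0474 and 0.0482 in knockout libraries. It was lower in every knockout library, and the second control library was again the highest. The difference of log2 ratios was -0.66 (p = 0.1 in a two-sided exact permutation test, the smallest possible, and 0.15 adjusted over the 3 ratios).

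**Figure D2:**
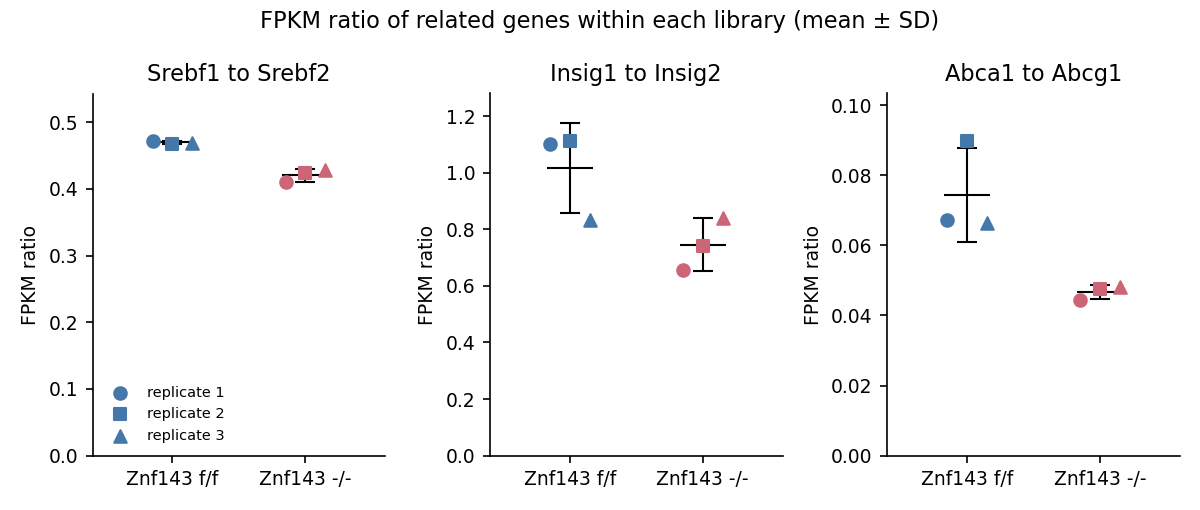
FPKM ratios of 3 pairs of related genes within each library (y axis, from 0), with 1 marker per library and lines for the mean ± SD. *Srebf1* to *Srebf2* and *Abca1* to *Abcg1* were lower in all 3 knockout libraries, whereas *Insig1* to *Insig2* overlapped between genotypes.

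The 6 members that did not overlap, *Srebf1*, *Srebf2*, *Insig1*, *Stard4*, *Abca1* and *Abcg1*, stayed below 0 under each alternative treatment that was run, but their calls changed. With libraries left out or averaged, this direction was fixed in advance, since every knockout value lay below every control value. *Insig2*, which overlapped, also stayed below 0 under each alternative, and *Scap* stayed above 0. With the close pairs averaged, so that each genotype had 2 samples, no member was called, although the log2 fold changes were -1.15 for *Abca1*, -0.73 for *Stard4*, -0.56 for *Abcg1* and -0.42 for *Srebf1*. With both distant libraries left out, a treatment added after seeing the data, 7946 of all 19279 genes tested were called. The 6 members without overlap were among them. Their log2 fold changes were -0.86 for *Abca1*, -0.62 for *Stard4*, -0.51 for *Abcg1*, -0.44 for *Srebf1*, -0.40 for *Insig1* and -0.30 for *Srebf2*. In FPKM as deposited, no member was called. Leaving out the first or the third control library, or the second or the third knockout library, also left 0 members called in limma, beside 5 or 6 with an unadjusted p under 0.05. Without the first knockout library, the call of *Srebf1* was lost and the other 3 were called.

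**Figure D3:**
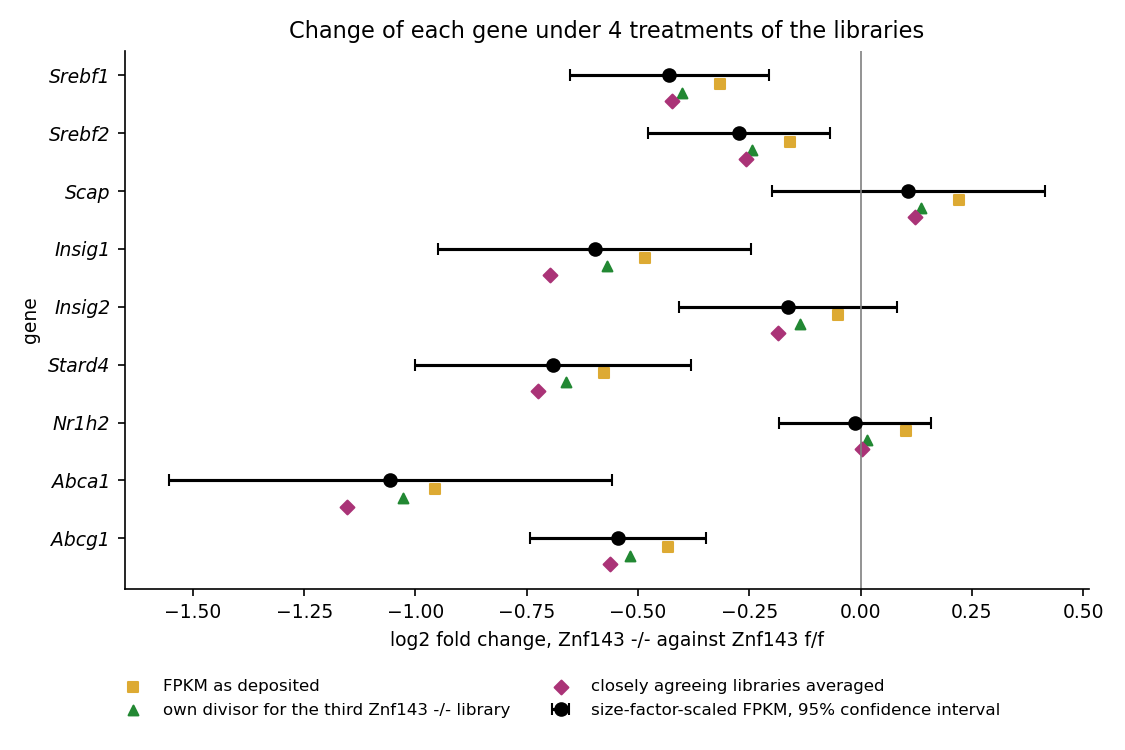
Log2 fold change of *Znf143 -/-* against *Znf143 f/f* (x axis) for each gene, with the 95% confidence interval on scaled FPKM (black) and the values in FPKM as deposited, with its own total as divisor for the third knockout library, and with the close libraries averaged. *Abca1* lay farthest below 0, and *Scap* and *Nr1h2* had intervals that include 0, as had *Insig2*.

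The genes around the 9 members were described by lists chosen by function. Of 12 genes of SREBP processing and turnover in the table, which include proteases, ubiquitin ligases and cofactors of the INSIG and SCAP complex, 0 were called in limma in either direction, and the median log2 fold change was 0.005. Their highest expressed genes were *Pgrmc1* (84.4 scaled FPKM in *Znf143 f/f*, log2 fold change 0.35, adjusted p = 0.239 in limma) and *Aup1* (39.5 scaled FPKM, 0.00, adjusted p = 0.983). Of 20 genes of sterol uptake and transport within the cell, 1 was lower and none higher, with a median of -0.016.

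Of 15 LXR partners and targets outside the members, 10 were tested, and 2 were lower and 0 higher. *Nr1h3*, which encodes LXRα, was at 1.17, 1.34 and 1.20 scaled FPKM in control and at 0.636, 0.542 and 0.681 in knockout libraries. The groups did not overlap, over 67 to 166 fragments per library, and the log2 fold change was -0.89 (SE 0.169, adjusted p = 0.0328 in limma). *Apoe*, the apolipoprotein that accepts exported cholesterol, was at 44.1, 36.6 and 42.3 in control and at 22.2, 20.9 and 21.4 scaled FPKM in knockout libraries (-0.92, SE 0.0937, adjusted p = 0.00459 in limma). The other 8 tested genes of this list did not pass the test, and the list's median was -0.13.

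Of 13 tested SREBP-1 targets of fatty acid synthesis, 1 was lower and 0 higher, with a median of -0.27. It was *Scd2*, a fatty acid desaturase, which was at 33.9, 25.0 and 35.1 scaled FPKM in control and at 11.2, 14.3 and 13.8 in knockout libraries. All knockout values were below all control values (log2 fold change -1.24, SE 0.163, adjusted p = 0.00987 in limma). Of the genes of sterol synthesis, 3 of 11 in the mevalonate pathway up to lanosterol and 4 of 10 in the later steps were lower and none higher, with medians of -0.45 and -0.49.

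**Figure D4:**
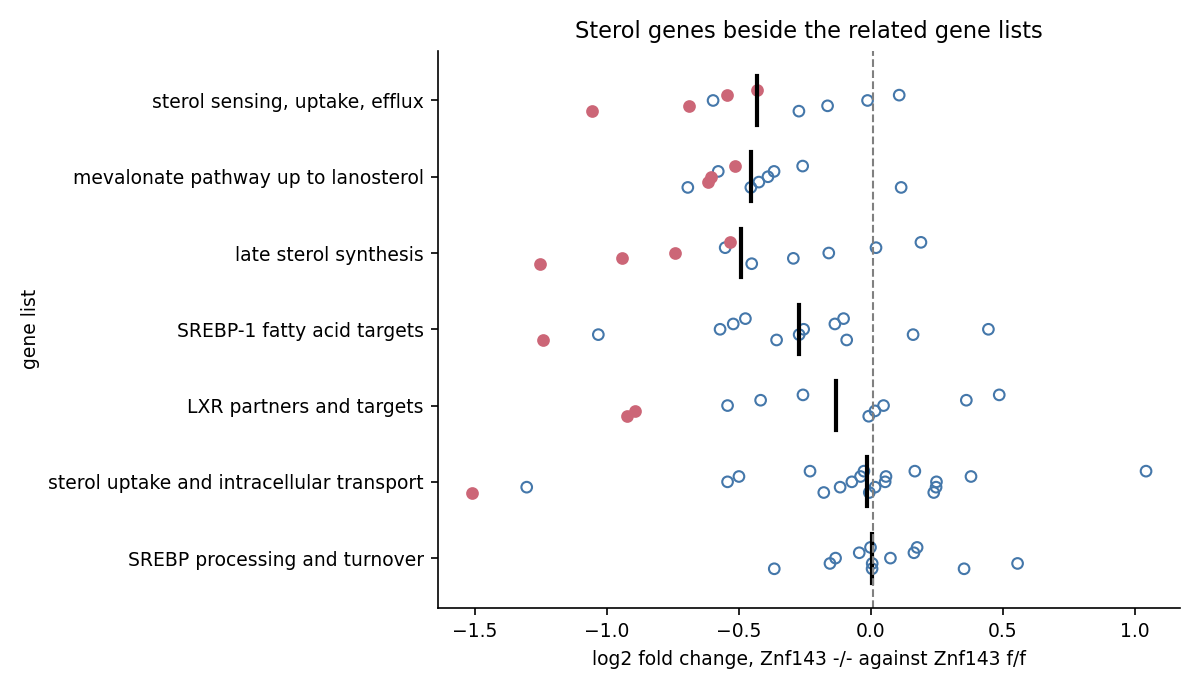
Log2 fold changes of *Znf143 -/-* against *Znf143 f/f* (x axis) of single genes in the sterol lists (y axis), filled where the adjusted p was under 0.05 in limma. The black bars mark each list's median and the dashed line that of all genes tested, and all filled genes lie below 0.

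Likeness of pattern over the 6 libraries of both genotypes is given as a description. It includes the difference between genotypes given above. Pearson's r of log2(scaled FPKM + 0.1) was 0.99 between *Srebf1* and *Srebf2*, 0.98 between *Srebf1* and *Stard4* and 0.98 between *Abca1* and *Abcg1*. *Scap* and *Nr1h2*, in contrast, had an r of -0.53 to 0.10 with the other members. Among genes with a mean scaled FPKM of at least 1, those most like *Abca1* were *Nqo1* (r = 0.999), *Mir146* (0.998), listed at 0 in all knockout libraries, and *Rras* (0.997). Those most like *Stard4* were *Sft2d2* (1.000), *Mum1* (0.998) and *Adipor2* (0.998).

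Markers of cell types in and around the sort also differed between genotypes. *Ly6a*, which encodes the Sca-1 of the LSK gate, was at 239 to 288 scaled FPKM in control and at 550 to 602 in knockout libraries, and *Cd48*, which the gate selects against, was at 9.56 to 11.1 and 19.6 to 20.4. The summed level of 10 stem cell markers, all detected, was 522 to 581 and 792 to 839, with *Ly6a* as its largest part. Of these 10 genes, however, 8 had a log2 fold change below 0, with a median of -0.34. In 6 of them, every knockout library lay below every control library. In limma, 1 was called lower and 1, *Ly6a*, higher. The summed level of 8 lymphoid markers was 54.8 to 65.3 and 83.3 to 89.1. Its largest part was *Cd79b*, with means of 43.5 and 42.1 scaled FPKM, and *Cd3e* was at or near 0. Among the 5 tested lymphoid markers, 3 were called higher in limma and 0 lower, with a median log2 fold change of 0.97. For 9 granulocyte markers, the sum was 201 to 268 and 271 to 430, most of it *Prtn3*, whose log2 fold change was 0.03. Of these 9 genes, 5 were called higher in limma and 0 lower, with a median log2 fold change of 1.46. The summed level of 10 macrophage and monocyte markers was 549 to 590 and 437 to 455, nearly all of it *Lyz2*. *Cd14* was at 1.77 to 3.22 scaled FPKM in control and at 0.946 to 1.53 in knockout libraries, which was not called. *Csf1r*, in contrast, was at 0 to 0.0139 scaled FPKM in control and at 0.185 to 0.262 in knockout libraries (log2 fold change 1.56, adjusted p = 0.0310 in limma). *Mrc1* was at 0 to 0.00408 and 0.0920 to 0.102, below the filter, and *Ly6c2* at 0.156 to 0.560 and 0.950 to 1.18, both without overlap, and *Fcgr3* was at 0 in control and at 0 to 0.234 in knockout libraries. Of the 6 tested genes of this list, *Csf1r* was called higher and none lower, with a median log2 fold change of 0.64. The summed erythroid level was 242 in the distant control library and 66.2 to 80.2 in the other 5, and that of 6 megakaryocyte markers was 543 to 625 and 675 to 1013. The part of these markers in the results on sterol genes was not tested.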

How the data were processed

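Reads of SMART-Seq v4 libraries were trimmed (TrimGalore), aligned to GRCm38 (STAR) and counted per gene (FeatureCounts) by the authors; the strand setting is not given in the sources used here. The authors deposited FPKM per library and gene length, and columns of their own DESeq2 comparison, which were not used. Libraries were grouped by the labels. The ChIP-seq and HiC samples were not analysed here.

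FPKM times length gave whole fragments (within 0.05) in 99.986% of 138696 values. FPKM was divided by median-of-ratios size factors, and log2(scaled FPKM + 0.1) was tested in limma 3.58.1 (R 4.3.3, eBayes with trend) over all 19279 genes with a mean of at least 0.1, all 6 libraries and no block, with Benjamini-Hochberg adjustment. The study describes the libraries of a genotype as biological replicates from littermate mice; which library belongs to which mouse or pair is not given in the sources used here. At 3 fragments, a gene of 1 kilobase has a scaled FPKM of 0.0514 to 0.0780. Coordinates are from GENCODE release 21, matched by symbol for 96.0% of genes.

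The members and lists were chosen with earlier results of these data known. The genes named are all members, *Zfp143*, list genes with an adjusted p under 0.05 (for a list with none, the 2 most expressed), defining markers, and the 3 genes most like each of the 2 members with the largest called change. Single genes of the uptake and synthesis lists, and of the marker lists beyond those named, are not reported here. Other tools were matplotlib 3.10.9, scipy 1.17.1, pandas 2.3.3 and numpy 2.4.6 under Python 3.11.15. Alternatives were FPKM as deposited, own total as divisor for the third knockout library, other pseudocounts and filters, voom on recovered fragments, no variance trend, a replicate block and each library left out; averaging the close libraries and leaving out both distant ones were added after seeing the data.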

Additional observations from a re-analysis of the deposited data

How the results depend on the processing

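Genes called, 1154 on scaled FPKM, numbered 191 with the replicate block, 44 with the close libraries averaged, 7946 without both distant libraries and 223 to 2241 with 1 library left out, the lowest without the third knockout library, and 833 to 1401 under the other alternatives. Leaving out the second control or the first knockout library gave 2241 and 2108 calls, and leaving out each of the others 223 to 370. In FPKM as deposited, the median log2 fold change of all genes was 0.11 and 63.5% of calls were higher, against 50.1% on scaled FPKM.

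Members called, 4 on scaled FPKM, numbered 0 in FPKM as deposited, 2 with its own total as divisor for the third knockout library, 2 without the variance trend, 0 with the replicate block, 0 with close libraries averaged, 0 to 4 with 1 library left out and 6 without both distant libraries. The cause was not tested. *Nr1h2* changed sign to 0.10 in FPKM as deposited, 0.0150 with that library's own total, 0.00342 without the third control library, 0.00591 without the second knockout library and 0.00362 with close libraries averaged, and lay between -0.0372 and 0.00591 with 1 library left out. Over the alternatives, the log2 fold change was -1.22 to -0.50 for *Abca1* (adjusted p 0.0101 to 0.348 in limma), -0.78 to -0.57 for *Stard4* (0.00365 to 0.290), -0.59 to -0.43 for *Abcg1* (0.00465 to 0.319) and -0.49 to -0.32 for *Srebf1* (0.00569 to 0.496). The 3 ratios kept their direction in all 8 alternatives run for each. For the ratios without overlap between genotypes, this had to hold with libraries left out or averaged.

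The study describes pairs of littermates, but which libraries form a pair is not given in the sources used here. The deviations of same-numbered libraries correlated at -0.0952, -0.0884 and 0.0353. With 3 libraries per genotype, 1 of them distant, these values cannot decide whether the replicate numbers mark the pairs. The block is given for its effect on the counts alone. *Abca1* could not be fitted where a mean of at least 1 was asked. It had the fewest fragments of the members, 199 to 691 per library.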
